A study of Mus musculus with 8 samples.

Results

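Jun, Junb, Jund, Fos, Fosb, Fosl2, Egr1, Dusp1, Btg2 and Atf3 are 10 of the 12393 named genes measured on mouse expression arrays of ventral prostate. They were chosen by name, with earlier results of these data known. Exactly these symbols were carried by 12 probe sets, with 2 probe sets each for Jun and Btg2 and 1 for each of the other 8 genes. The study set wild type FVB mice, labelled as having normal prostate, against transgenic FVB mice labelled as having mouse prostatic intraepithelial neoplasia, a lesion held to precede invasive cancer. All samples were ventral prostate taken at 20 weeks of age, 4 per group with 1 array each, numbered 1 to 4 in the labels. The transgene encodes an active form of p110 beta, 1 of the catalytic isoforms of PI3-kinase, per the series design. The sources used here give neither the promoter that drives it nor the animal behind each array. The p-values therefore reflect only how much these arrays varied, part of which may be technical. Values are log2 RMA values, which are normalised between arrays.

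AP-1 is a family of dimeric transcription factors. Jun proteins pair with one another or with Fos proteins, Fos proteins need a Jun partner, and Atf3 is a related basic leucine zipper protein that can join them. Many of these genes are immediate early genes: growth factors, stress and tissue handling switch them on within minutes, without new protein synthesis, through MAP kinases acting on factors already bound at their promoters. Egr1, a zinc finger factor, Dusp1, a phosphatase that switches MAP kinases off, and Btg2, an antiproliferative gene, are induced in the same way.

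The 3 genes that passed the test below were Jun, Dusp1 and Btg2, and their promoter sequences are printed here with that of Fos, which did not pass. The lines give the 250 bases before the annotated start, 5′ to 3′ in the direction of the gene, from RefSeq on build GRCm38.p6. Windows of a whole chromosome were left out beforehand, and 9 of the 10 genes, all but Egr1, had a window among the rest. Capitals mark matches on either strand to TGACGTCA (the cyclic AMP response element), to its core TGACG (which lies within it), to TGACATCA (the AP-1-like element known from the Jun promoter), to TGACTCA (the AP-1 site), to GCGNGGGCG (an EGR site), to TATAAA and to the serum response (CArG) box.
Jun, chr4:95052223-95052472, minus strand: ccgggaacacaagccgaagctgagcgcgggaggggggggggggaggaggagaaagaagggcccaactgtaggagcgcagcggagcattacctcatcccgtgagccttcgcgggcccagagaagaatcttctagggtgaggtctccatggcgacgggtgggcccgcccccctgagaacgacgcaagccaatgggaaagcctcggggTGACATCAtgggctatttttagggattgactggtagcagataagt
Dusp1, chr17:26508473-26508722, minus strand: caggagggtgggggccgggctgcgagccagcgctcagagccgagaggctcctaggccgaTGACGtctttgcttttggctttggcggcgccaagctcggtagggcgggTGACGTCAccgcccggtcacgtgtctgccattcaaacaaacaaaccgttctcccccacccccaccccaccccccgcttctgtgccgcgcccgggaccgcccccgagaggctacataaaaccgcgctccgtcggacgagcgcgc
Btg2, chr1:134079156-134079405, minus strand: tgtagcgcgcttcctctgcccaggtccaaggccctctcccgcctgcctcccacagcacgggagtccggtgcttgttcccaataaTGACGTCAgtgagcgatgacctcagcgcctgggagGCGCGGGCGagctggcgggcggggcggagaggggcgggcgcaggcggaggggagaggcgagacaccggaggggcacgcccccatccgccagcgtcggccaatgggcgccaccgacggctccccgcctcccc
Fos, chr12:85473640-85473889, plus strand: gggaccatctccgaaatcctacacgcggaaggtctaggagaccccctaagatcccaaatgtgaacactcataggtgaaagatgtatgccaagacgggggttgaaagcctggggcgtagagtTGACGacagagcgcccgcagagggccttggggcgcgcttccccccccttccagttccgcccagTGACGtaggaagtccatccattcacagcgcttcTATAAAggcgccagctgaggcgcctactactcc

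The full element TGACGTCA was found in the Dusp1 and Btg2 windows, and in 1.55% of the 32851 promoter windows of this length that were kept (all windows below). The Jun window held TGACATCA, found in 2.93% of all windows. The core TGACG was found in 6 of the 9 windows (Junb, Fos, Fosb, Dusp1, Btg2 and Atf3) and in 17.8% of all windows. The EGR site was found in Fosb, Fosl2 and Btg2 (4.7% of all windows) and TATAAA in Fos (12.4%). TGACTCA and the serum response box were in none of the 9 windows, against 4.46% and 1.47% of all windows, which says only that these letters are not in these 250 bases. These matches describe the sequences and do not show binding.

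Facts of the arrays that bear on these genes are few. The prostate secretory genes Pbsn, Msmb, Spink1 and Azgp1 read 10.21 or more on every array, although 3 of the 4 fell, and all 6 measured seminal vesicle markers had means below every array median. Of 12 smooth muscle markers 3 fell, of 12 fibroblast markers 2 fell, of 11 basal epithelial markers 5 fell and of 8 measured luminal epithelial markers 5 rose in limma, where 11.0% of all genes were called. Wild type array 2 had the highest smooth muscle and fibroblast levels. The mean of gene-centred log2 values was 0.66 there for smooth muscle, against -0.03 to 0.32 on the other wild type arrays and -0.47 to -0.09 on the transgenic arrays, and 0.96 for fibroblasts, against -0.31 to 0.31 and -0.39 to -0.16. All 12 fibroblast markers were higher on it than on any other wild type array. The part of cell makeup in the results below was not tested, and in whole tissue fewer cells of a type cannot be told apart from less RNA per cell.

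Of the 10 genes, Jun, Dusp1 and Btg2 were higher in transgenic prostate, 0 were lower and 7 did not pass the threshold (limma, Benjamini-Hochberg adjusted p under 0.05 over all 22626 probe sets tested). That is 30% of them, where 11.0% of all genes were called in either direction and 5.99% were called higher. The median difference, transgenic minus wild type, was 0.46 on the log2 scale for the 10 genes and -0.04 for all genes. Of the 10 differences 9 were above 0, against 5158 of those of all 12393 genes. The groups did not overlap for 2 of the 10 genes, Jun and Btg2, with the transgenic arrays higher, against 8.09% of all genes. Without wild type array 2 the test called 5 of the 10, all higher, adding Fos and Egr1. In that fit 8.86% of all genes were called, and 5.01% were called higher. That array was singled out after it was seen to be high for these genes, and of the other 7 fits that left out 1 array, 5 called Jun alone, losing Dusp1 and Btg2. With the 3 prime minus 5 prime difference of control probe sets, a sign of RNA integrity, as a covariate limma called 0 of the 10 (only Jun, 1 of the 10, had an unadjusted p under 0.05 there), and 2.15% of all genes were called and 1.48% of all genes were called higher. That difference lay between 1.34 and 1.56 in wild type and between 0.97 and 1.40 in transgenic arrays, so it moved with the groups.

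**Figure D1:**
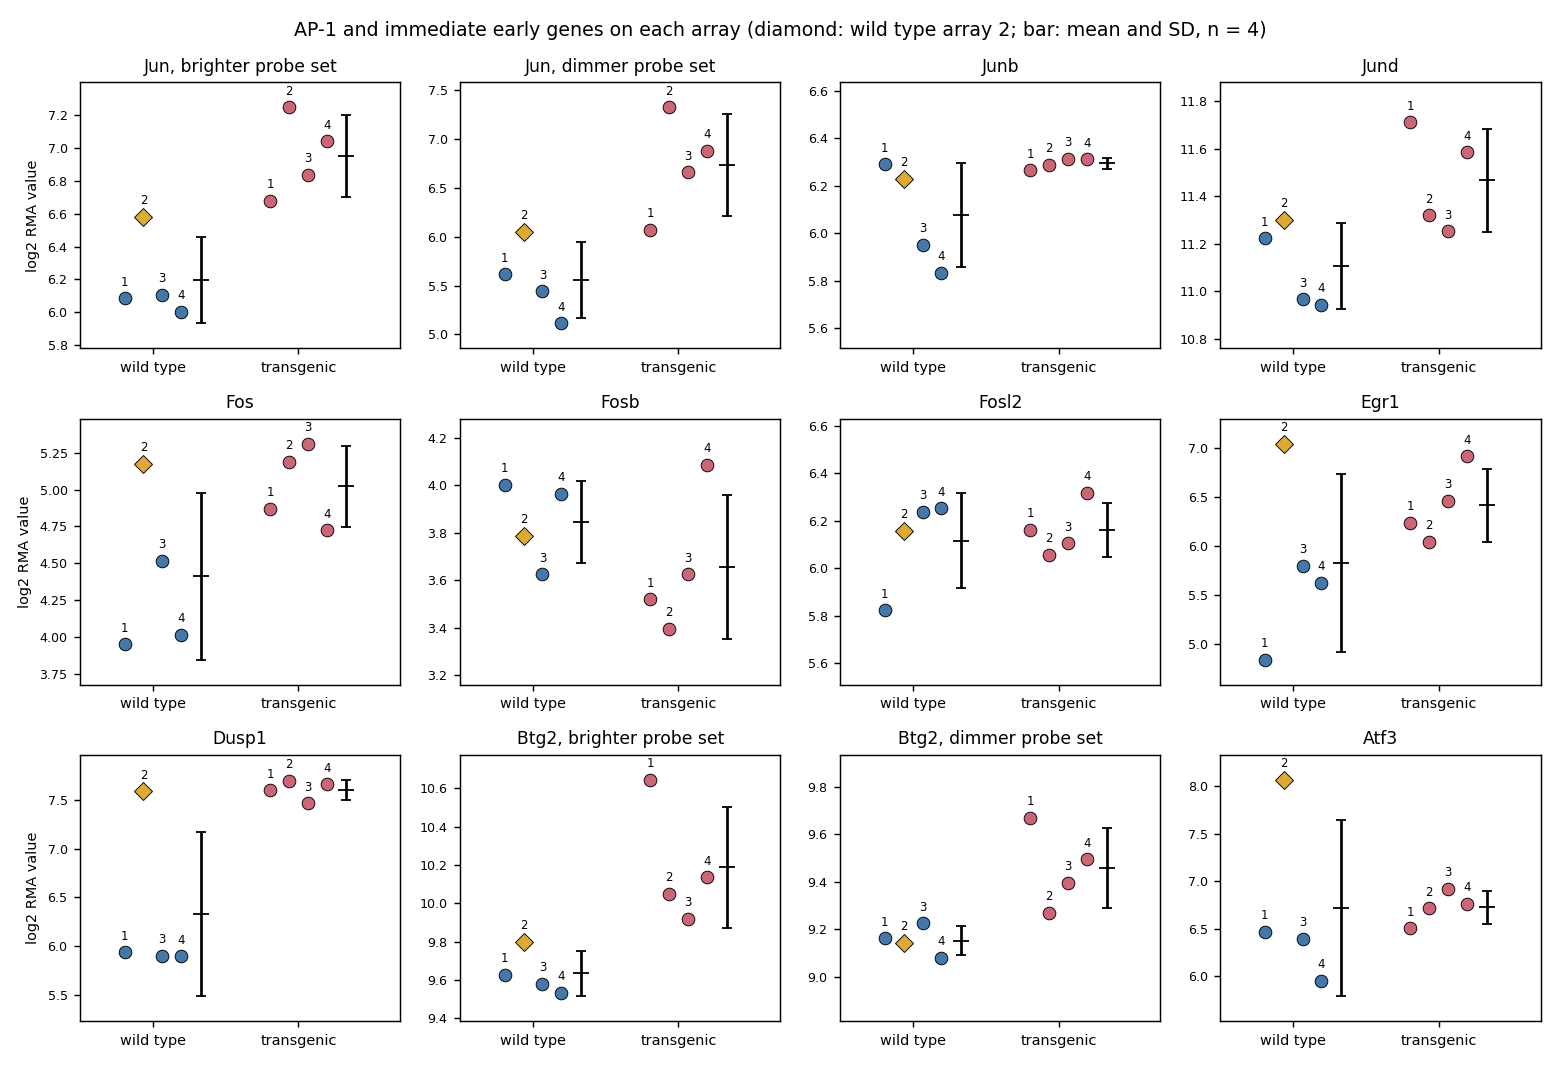
Log2 RMA value (vertical axes) of each of the 12 probe sets on the 4 wild type and 4 transgenic arrays, numbered as in the labels, with mean and SD beside each group. Jun and Btg2 separate the groups, while the diamond of wild type array 2 lies at the transgenic level for Dusp1 and Fos and above all transgenic arrays for Egr1 and Atf3.

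Among the Jun proteins, Jun itself, the main activating partner, rose. Its brighter probe set read 6.09, 6.58, 6.11 and 6.00 on wild type arrays 1 to 4 and 6.68, 7.25, 6.84 and 7.04 on transgenic arrays 1 to 4. Every transgenic array lay above every wild type array, and wild type array 2 was the highest of its group. The difference was 0.76 ± 0.15 (SE) on the log2 scale, a 1.69-fold rise (limma adjusted p = 0.00942). The dimmer Jun probe set read 5.62, 6.05, 5.44 and 5.11 in wild type and 6.07, 7.32, 6.66 and 6.88 in transgenic arrays. It gave a larger difference of 1.18 ± 0.25 (SE), 2.26-fold, with a limma adjusted p of 0.0116, so both probe sets of Jun rose. The groups were close at their nearest point, 6.05 in wild type array 2 against 6.07 in transgenic array 1. Jun passed with each of the 8 arrays left out in turn, with adjusted p from 0.0031 to 0.036 for the brighter probe set and 0.00232 to 0.0426 for the dimmer. With the 3 prime minus 5 prime difference as a covariate the estimates were 0.68 and 1.05 and neither passed (adjusted p = 0.401 and adjusted p = 0.438).

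Jund, a broadly expressed Jun protein that responds less to stimuli, did not pass. It read 11.22, 11.30, 10.97 and 10.94 in wild type and 11.71, 11.32, 11.25 and 11.58 in transgenic arrays. Transgenic arrays 1, 2 and 4 lay above all wild type arrays and transgenic array 3 below wild type array 2. The difference was 0.36 (95% interval 0.07 to 0.65, limma adjusted p = 0.127). Junb, which often restrains Jun, read 6.29, 6.23, 5.95 and 5.83 in wild type and 6.27, 6.29, 6.31 and 6.31 in transgenic arrays. The transgenic arrays were within 0.05 of one another at the level of the higher wild type arrays 1 and 2, and the difference of 0.22 (95% interval -0.03 to 0.47) did not pass (limma adjusted p = 0.32).

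Of the Fos proteins none passed with all 8 arrays. Fos, the classical immediate early gene of the family, read 3.95, 5.17, 4.51 and 4.01 in wild type and 4.87, 5.19, 5.31 and 4.72 in transgenic arrays. Wild type array 2 lay among the transgenic arrays and the other 3 wild type arrays below all of them. The difference was 0.61 (95% interval 0.08 to 1.15, limma adjusted p = 0.166). Without wild type array 2, singled out after its values were seen, it was 0.86 ± 0.18 (SE), with a limma adjusted p of 0.0139. Fos was dim, with both group means under the lowest array median, so its values may be partly background and its differences are approximate. With the 3 prime minus 5 prime difference as a covariate its estimate was -0.086 (limma adjusted p = 0.999).

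Fosb, a close relative of Fos, read 4.00, 3.79, 3.63 and 3.96 in wild type and 3.52, 3.39, 3.63 and 4.09 in transgenic arrays. The groups overlapped throughout, both means were below every array median, and the difference was -0.19 (95% interval -0.52 to 0.14, limma adjusted p = 0.56). Fosl2, which encodes the more slowly induced Fra-2 protein, read 5.82, 6.16, 6.24 and 6.25 in wild type and 6.16, 6.05, 6.10 and 6.32 in transgenic arrays. Its difference was 0.04 (95% interval -0.22 to 0.30, limma adjusted p = 0.892), and wild type array 2 was not high for either Fosb or Fosl2. Fosl1, encoding Fra-1 and not among the 10, differed by 0.06 (95% interval -0.20 to 0.31), with both means below every array median.

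Atf3, a stress-induced partner and repressor, had group means of 6.72 in wild type and 6.73 in transgenic prostate, and its highest single reading was in wild type. It read 6.47, 8.06, 6.39 and 5.96 in wild type and 6.51, 6.72, 6.92 and 6.76 in transgenic arrays. Wild type array 2 stood above all transgenic arrays, and the other 3 wild type arrays stood below all of them. The difference was 0.01 (95% interval -0.77 to 0.78, limma adjusted p = 0.996). Without wild type array 2 it was 0.45 ± 0.15 (SE), which did not pass (limma adjusted p = 0.107).

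Egr1, the zinc finger factor induced by growth factors through serum response factor, spread widely in wild type. It read 4.85, 7.05, 5.80 and 5.63 there and 6.24, 6.05, 6.47 and 6.92 in transgenic arrays. Wild type array 2 was the highest of all 8 arrays and wild type array 1 the lowest. The difference of 0.59 (95% interval -0.22 to 1.39) did not pass (limma adjusted p = 0.428). Without wild type array 2, singled out after its values were seen, it was 0.99 ± 0.25 (SE) and passed (limma adjusted p = 0.0345).

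Dusp1, encoding the phosphatase MKP-1, had the largest difference of the 12 probe sets. It read 5.94, 7.59, 5.90 and 5.90 in wild type and 7.60, 7.69, 7.46 and 7.66 in transgenic arrays. Wild type arrays 1, 3 and 4 lay within 0.05 of one another, and wild type array 2 stood at the transgenic level, above transgenic array 3. Over all arrays the difference was 1.27 ± 0.32 (SE), a 2.41-fold rise (limma adjusted p = 0.0267). Without wild type array 2, singled out after its values were seen, it was 1.69 ± 0.10 (SE), 3.23-fold, with a limma adjusted p of 5.86e-06. That choice lowers the spread, so this SE and p overstate the precision. The call was lost without any one of wild type arrays 1, 3 and 4 and transgenic arrays 2, 3 and 4, where the adjusted p reached 0.0903. With the 3 prime minus 5 prime difference as a covariate the difference was 0.79 (adjusted p = 0.791).

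Btg2, an antiproliferative gene also induced by p53, was higher in transgenic prostate by a smaller amount. Its brighter probe set read 9.63, 9.80, 9.58 and 9.53 in wild type and 10.64, 10.05, 9.92 and 10.14 in transgenic arrays. The groups did not overlap and transgenic array 1 was the highest. The difference was 0.55 ± 0.15 (SE), 1.47-fold (limma adjusted p = 0.0371). The dimmer probe set read 9.16, 9.14, 9.23 and 9.08 in wild type and 9.67, 9.27, 9.40 and 9.49 in transgenic arrays, again without overlap, and its difference of 0.30 did not pass (limma adjusted p = 0.104). The brighter probe set missed the threshold in 5 of the 8 fits that omit an array, those omitting transgenic array 2, transgenic array 4, or a wild type array other than number 2, with adjusted p of at most 0.104. It also missed it after quantile (adjusted p = 0.0991) or cyclic loess normalization (adjusted p = 0.0688), with a stromal covariate (adjusted p = 0.276) and with the 3 prime minus 5 prime covariate (adjusted p = 0.629). On wild type array 2 the brighter probe set was 0.22 above, and the dimmer 0.01 below, the mean of the other wild type arrays.

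**Figure D2:**
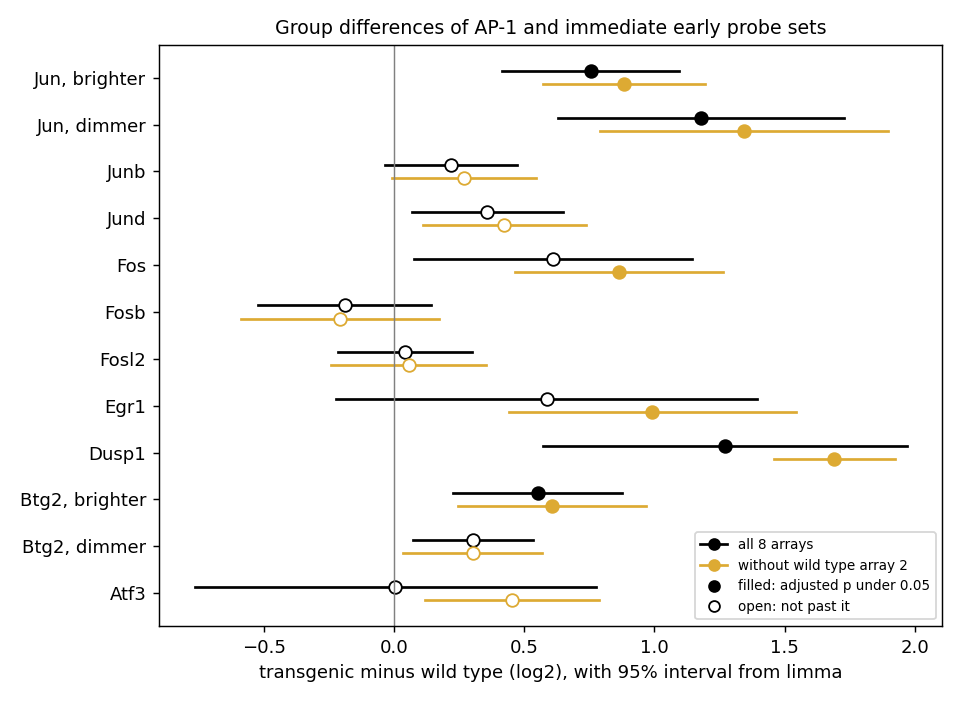
Transgenic minus wild type difference (log2, horizontal axis) of each probe set with its 95% interval from limma, over all 8 arrays (black) and without wild type array 2 (yellow), filled where the adjusted p was under 0.05. Dusp1 went from 1.27 to 1.69 and Fos and Egr1 passed without that array and not with it, while Fosb and Fosl2 stayed near 0. That array was singled out after its values were seen.

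Wild type array 2 thus stood apart for a part of these genes. It was the highest wild type array for 7 of the 10 genes, and for 16.2% of all genes. The same held for 22 of 46 other immediate early genes, 8 of 12 smooth muscle markers and 12 of 12 fibroblast markers. For the bZIP partners it held for 4 of 17, and for heat shock genes for 3 of 14, so the trait was not particular to the 10 genes. Wild type array 2 exceeded the mean of the other 3 wild type arrays by 1.79 for Atf3, 1.68 for Dusp1, 1.62 for Egr1 and 1.02 for Fos. The excess was more than 1 for 0.662% of all genes. Among the other immediate early genes it was 1.93 for Ccn2. For Jun the excess was 0.51, for Jund 0.26, for Btg2 0.22, for Junb 0.20, for Fosl2 0.05 and for Fosb it was -0.08. It was also the array with the highest stromal marker levels, and its macrophage markers averaged 0.36 against -0.41 to 0.05 on the other wild type arrays. Its 3 prime minus 5 prime difference of 1.34 was the lowest of the wild type arrays, and its heat shock genes averaged -0.04, within the -0.39 to 0.29 of the other wild type arrays. The part of these measures in its immediate early levels was not tested.

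With the stromal score (the mean of the smooth muscle and fibroblast values) as a covariate, 4 of the 10 genes were called higher, Jun, Fos, Egr1 and Dusp1, against 4.63% of all genes called and 2.52% called higher. The difference of Egr1 was then 1.82 (adjusted p = 0.000717) and that of Fos 1.30 (adjusted p = 0.00989). Dusp1 went to 2.17 (adjusted p = 0.0026), and Atf3 to 0.99 without passing (adjusted p = 0.161). Btg2 kept its difference, at 0.56 ± 0.23 (SE), but was no longer called. Over the whole array 939 probe sets were called in that fit, against 2227 without the covariate. The score was 0.81 on wild type array 2, between -0.17 and 0.29 on the other wild type arrays and between -0.43 and -0.18 on the transgenic arrays. It thus moved with the groups without overlap and was highest on the array that was high for Fos, Egr1, Dusp1 and Atf3. Score, group and that array cannot be cleanly told apart in this fit.

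**Figure D3:**
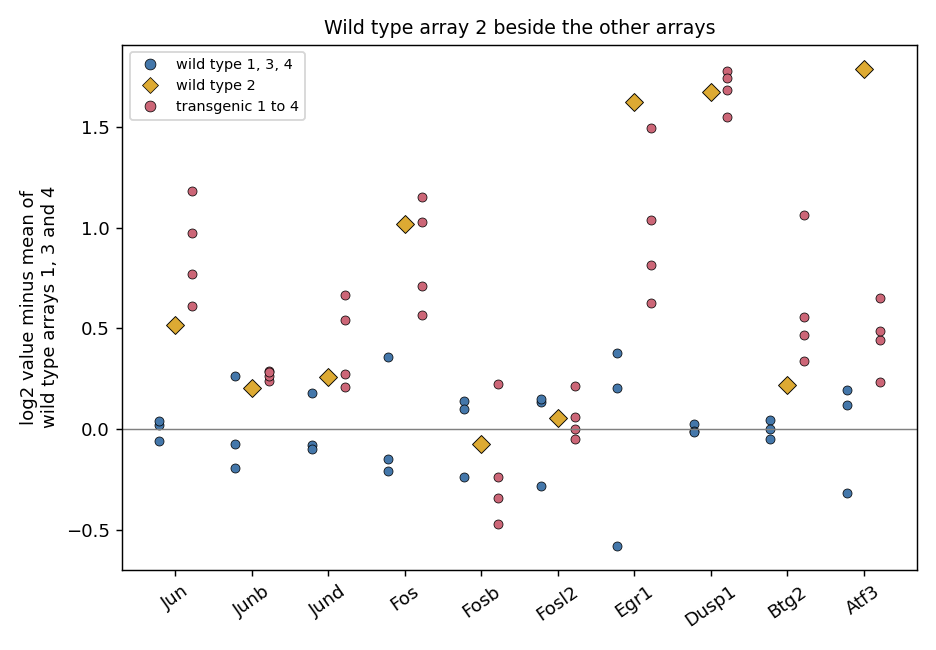
Log2 value of each array minus the mean of wild type arrays 1, 3 and 4 (vertical axis) for the brighter or single probe set of each gene. Wild type array 2 (diamond) lies 1.02 to 1.79 above the other wild type arrays for Fos, Egr1, Dusp1 and Atf3, and -0.08 and 0.05 from them for Fosb and Fosl2.

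The next list holds other basic leucine zipper genes that can pair with AP-1 proteins. Of its 17 measured members (Fosl1, Jdp2 and genes of the Batf, Atf, Maf and Creb groups) 0 passed in limma, where 11.0% of all genes did. In limma 1 of the 17 had an unadjusted p under 0.05, against 2826 of all 12393 genes, and the median difference was -0.05. The nearest to the threshold was Atf5, at 6.29 ± 0.28 in wild type and 5.81 ± 0.15 in transgenic arrays (SD, n = 4 each; limma adjusted p = 0.0593). Atf5, on a probe set marked as shared between transcripts, passed as lower in 1 of the 8 fits that left out 1 array, without wild type array 4 (adjusted p = 0.0108). It also passed with array weights (adjusted p = 0.00924) and without the dimmest 40% of probe sets (adjusted p = 0.049). Atf5 did not pass with the stromal score (-0.24, limma adjusted p = 0.706) or the 3 prime minus 5 prime covariate (-0.71, limma adjusted p = 0.257). Atf4, the factor of the amino acid response, differed by 0.04 and Atf2, a partner of Jun, by -0.09, neither past the threshold.

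Among 46 other immediate early genes 5 rose, 2 fell and 39 did not pass, or 15.2% called against 11.0% of all genes, with a median difference of -0.06. Klf4, a zinc finger factor of epithelial differentiation, read 5.91, 6.77, 6.37 and 6.28 in wild type and 8.90, 9.26, 8.96 and 9.16 in transgenic arrays, a 6.67-fold rise (limma adjusted p = 1.94e-06). Its other probe set rose by 3.15. Klf6 rose by 0.89 and Ier5 by 1.07, but Klf6 was called in 2 and Ier5 in 3 of the 8 fits that left out 1 array, and the other probe sets of Klf6 and Ier5 did not pass. The wild type mean of Ier5 lay under every array median, so its size is approximate. Hbegf, encoding a ligand of the EGF receptor, fell by 0.78, and by 0.56 on its other probe set. Hbegf kept its call in 5 of those 8 fits, was 0.90 higher on wild type array 2 than the mean of the other wild type arrays, and in the fit with the stromal score it was at -0.36 (adjusted p = 0.583). The remaining calls, named after their values were seen, were Nfkbia, an NF-kB inhibitor gene, at 0.70, Btg1, a relative of Btg2, at 0.55, and the kinase gene Pim1, at -0.42. Nfkbia was called in 8, Btg1 in 4 and Pim1 in 3 of the 8 fits. Of the 46 genes, only Klf4 was called with the 3 prime minus 5 prime covariate (limma adjusted p = 0.00146). In that fit 2.15% of all genes were called. Of other well known members of the class, Ier2 differed by -0.13, Nr4a1 by 0.15, Egr3 by -0.10, Zfp36 by 0.13 and Myc by -0.21, with none of these past the threshold.

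Upstream of AP-1, 1 of 21 measured kinases and SRF-linked factors rose, or 4.76% against 5.99% of all genes. Map2k1, encoding the ERK-activating kinase MEK1, went from 7.75 ± 0.09 to 8.15 ± 0.05 (SD, n = 4 each; limma adjusted p = 0.0158), a call lost without transgenic array 2 (adjusted p = 0.0599). The call was also lost with the stromal score (limma adjusted p = 0.288) and with the 3 prime minus 5 prime covariate (limma adjusted p = 0.368). Mapk8, encoding the Jun kinase JNK1, differed by 0.31 without passing (adjusted p = 0.0569) although its groups did not overlap. Srf, whose product induces Fos and Egr1, differed by -0.23 (95% interval -0.56 to 0.09). The list median was 0.02.

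Among 15 other dual-specificity phosphatases 1 rose and 1 fell, or 13.3% called against 11.0% of all genes. Dusp6, an ERK phosphatase that is itself induced by ERK, read 5.14, 5.38, 5.36 and 5.46 in wild type and 4.49, 4.48, 4.57 and 4.47 in transgenic arrays, opposite in direction to Dusp1. It fell by 0.83 (limma adjusted p = 0.000243), and both group means lay below every array median, so the size is approximate. Dusp3 rose by 0.47 (limma adjusted p = 0.0287), with its other probe set at 0.48, and was called in 2 of the 8 fits that left out 1 array. Dusp6 was still called with the 3 prime minus 5 prime covariate (limma adjusted p = 0.0337), and Dusp3 was not (limma adjusted p = 0.279). For Dusp10, another phosphatase of Jun kinase and p38, wild type array 2 was again high, at 0.97 above the mean of the other wild type arrays, and its group difference of 0.24 did not pass with all arrays.

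Of 27 measured AP-1 target genes, 0 rose, 2 fell and 25 did not pass, or 7.41% called against 11.0% of all genes. In limma 7 of the 27 had an unadjusted p under 0.05, against 2826 of all 12393 genes, and the median was -0.11. Gja1, a connexin gene, was 0.91 lower on a probe set marked as shared (limma adjusted p = 0.0145), with 3 of its other 5 probe sets also called lower. The Gja1 probe sets not so marked were at -0.48 (limma adjusted p = 0.0362) and 0.09 (limma adjusted p = 0.685). The transgenic mean of Gja1 and its other probe sets lay below every array median. In the fit with the stromal score the difference of Gja1 was -0.41 (adjusted p = 0.485). Mt1, a metallothionein gene, was 0.79 lower on a probe set marked as shared between transcripts (limma adjusted p = 0.00117), while its other, dim probe set did not pass. Neither Gja1 (limma adjusted p = 0.101) nor Mt1 (limma adjusted p = 0.242) was called with the 3 prime minus 5 prime covariate. Ccnd1, Mmp9, Plaur and Timp1 differed by -0.53, -0.03, 0.40 and -0.14 without passing. Several listed targets are also stromal genes and were high on wild type array 2: Vim by 1.51, Timp3 by 1.14 and Fn1 by 0.97 above the mean of the other wild type arrays.

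Heat shock genes, another stress-induced class, varied within both groups. Of 14 measured, 0 rose, 1 fell and 13 did not pass in limma, or 7.14% called against 11.0% of all genes. In limma 5 of the 14 had an unadjusted p under 0.05, against 2826 of all 12393 genes, and the median was 0.11. Hspb1, a small heat shock protein gene, fell by 1.32 (limma adjusted p = 0.000137), and both of its probe sets, marked as shared, fell. Hspb1 was still called with the 3 prime minus 5 prime covariate (limma adjusted p = 0.0014). Hspa1a, the inducible HSP70 gene, read 7.28, 6.97, 8.54 and 6.22 in wild type and 8.30, 9.84, 9.14 and 8.15 in transgenic arrays, a difference of 1.60 just short of the threshold (limma adjusted p = 0.0502). It passed in 2 of the 8 fits that left out 1 array, those without wild type array 3 (adjusted p = 0.0109) and transgenic array 1 (adjusted p = 0.047). In the other fits of that kind the limma adjusted p reached 0.147. It also passed without the dimmest 40% of probe sets (adjusted p = 0.0381) and without shared probe sets (adjusted p = 0.048). Hspa1a did not pass with the stromal score (limma adjusted p = 0.344) or the 3 prime minus 5 prime covariate (0.83, limma adjusted p = 0.918). Its highest wild type reading was on array 3, not on array 2 where Atf3, Dusp1 and Egr1 peaked.

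**Figure D4:**
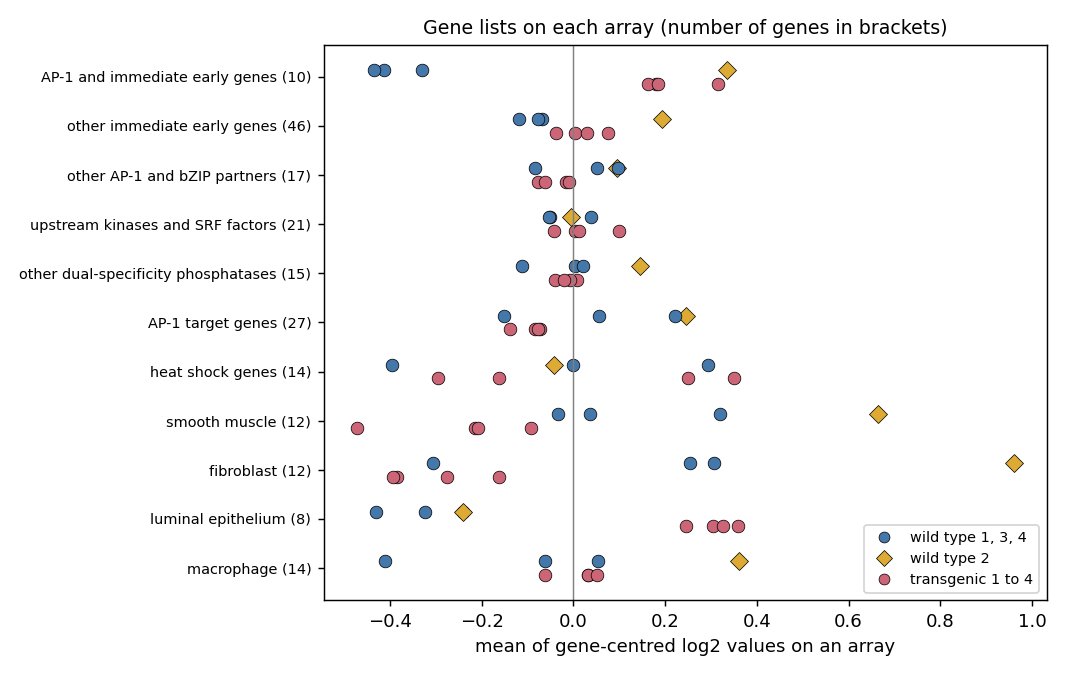
Mean of gene-centred log2 values (horizontal axis) of each gene list on each array, wild type above and transgenic below on each line. For the 10 AP-1 and immediate early genes wild type array 2 is at 0.34 beside transgenic arrays at 0.16 to 0.32, with the other wild type arrays at -0.44 to -0.33, and the same array is the highest for smooth muscle, fibroblast and macrophage markers.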

How the data were processed

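The authors deposited 1 table of log2 expression values. RMA is the tool named in the submitters' processing notes, without a version. The genome build is not given in the sources used here. Of its 22690 probe sets, 22626 were tested and 64 are array controls. Symbols came from the platform annotation, updated by gene identifier to RefSeq names (GRCm38.p6), and where several probe sets named a gene alone, the brightest on average stood for it. R 4.3.3 and limma 3.58.1 gave the fit (lmFit, eBayes, transgenic minus wild type, no covariate), with Benjamini-Hochberg adjustment over all probe sets, and tested on simulated data. Array medians ran from 5.40 to 5.51. Precision is limited by the number of arrays. The rule for named genes took all 10 genes and, of each pathway list, up to 4 called members by size or else the smallest p. Values of other list members are given as examples chosen after their values were seen. The 10 genes and all lists were chosen with earlier results of these data known. The main fit did not pair samples by replicate number, and whether the numbers pair them was not settled.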

Additional observations from a re-analysis of the deposited data

Results flagged for a closer look

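Among the 24 sets of 4 arrays (12 probe sets in 2 groups), 1 had an array set apart from the rest by Dixon's criterion, and chance gives about 1 in 20. It was Dusp1 on wild type array 2, at 7.59 against 5.90 to 5.94 on the other wild type arrays, a gap of 0.976 of the group's range. Over all genes, wild type array 2 was set apart upwards for 0.412%.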

How the results depend on the processing

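Of the 10 genes, 3 were called over all arrays, 0 with the 3 prime minus 5 prime difference as a covariate, 1 at a threshold of 0.01, and 1 to 5 with each array left out in turn. It was 5 when wild type array 2 was left out, and 1, Jun, when transgenic array 2 or 4 or wild type array 1, 3 or 4 was. Over the whole array 2227 probe sets were called, against 3587 with array weights, 1429 genes with probe sets averaged by gene, 1380 without shared probe sets (the last 2 test fewer features), 939 with the stromal score, 419 with the 3 prime minus 5 prime difference and 1096 at 0.01, and 1387 to 2525 with each array left out (1387 without transgenic array 2). The cause was not tested.

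The differences of 4 genes changed sign under some alternative, and none passed there. Atf3, at 0.01 over all arrays, was at -0.080 with array weights, -0.68 with the 3 prime minus 5 prime difference, 0.99 with the stromal score and -0.25 to 0.45 with each array left out. Fosl2 was at -0.024 with array weights and -0.055 to 0.088 with each array left out. With the 3 prime minus 5 prime difference Fos went from 0.61 to -0.086 and Fosb from -0.19 to 0.24. Jun, Junb, Jund, Egr1, Dusp1 and Btg2 kept their direction under every alternative run, on every probe set tested.

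With the replicate number as a block 1797 probe sets and 2 of the 10 genes were called, and Btg2 missed the threshold (adjusted p = 0.0546). Btg1, Pim1, Map2k1 and Dusp3 also missed it, and Atf5 and Hspa1a passed it (adjusted p = 0.0473 and adjusted p = 0.021). Same-numbered arrays correlated at -0.31, 0.24, -0.20 and 0.33 after group means were removed. With so few arrays these values cannot decide whether the numbers pair the samples.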

Other observations

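The genes whose pattern was most like the mean of the 10 genes, by Pearson correlation over the 8 arrays after subtracting group means, were Tuba1a, Mmp2, Igfbp6, Fstl1 and Msn, with r from 0.958 to 0.976. Without wild type array 2 these were 0.36, 0.52, 0.59, 0.62 and 0.91, so the likeness of the first 4 rests largely on that array. None of the 5 passed the test between groups, and their differences lay between -0.78 and -0.45, opposite in sign to the median of the 10 genes.

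For Fos alone the nearest were Iqgap1, Utp20, Lgals3, Timp3 and 2700097O09Rik, with r from 0.949 to 0.962, and from 0.855 to 0.931 over the 7 arrays without wild type array 2. For Dusp1 alone they were Tuba1a, Cavin1, Fstl1, Ccl6 and Tspan4, with r from 0.959 to 0.985, and from -0.57 to 0.79 without that array. Lgals3, encoding galectin-3, rose between groups by 0.98 (limma adjusted p = 0.0217), a call kept in 4 of the 8 fits that left out 1 array. Its estimate was 0.27 with the 3 prime minus 5 prime covariate and did not pass (limma adjusted p = 0.971). The arrays were few, the genes were picked from all bright genes for this likeness, and no test was made.

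Among the 10 genes, deviations from group means of Dusp1 and Atf3 had r of 0.94 over 8 arrays and -0.19 without wild type array 2. Those of Jund and Btg2 had r of 0.83 and 0.82, and thus did not rest on that array. Both genes had their highest reading on transgenic array 1, at 11.71 and 10.64. These pairs were picked from all pairs of the 10 genes, and no test was made.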
